A study of Mus musculus with 12 samples.

Results

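The cerebellar marker genes Gabra6, Cbln1, Cbln3, Pcp2, Car8, En2, Zic1, Zic2 and Fat2 were followed across all 12 libraries of a mouse brain and liver total RNA series. They are 9 of the 55450 genes in the count table, found there by symbol, and all 9 were present. The set was chosen by its measured levels in these brain libraries, which differed with the replicate number. The animals were males of 7 to 9 weeks, either labelled wild-type (their titles say flx, and the extraction text writes the genotype as Vaultrc5+/+) or labelled vaultrc5-/-, that is, lacking both copies of the vault RNA gene Vaultrc5. There were 4 groups, wild-type brain, knockout brain, wild-type liver and knockout liver, with 3 libraries each, numbered 1 to 3 in the titles. The strain, how the allele was made, the part of the brain that was taken and whether libraries with the same number share an animal, a litter or a day were not given in the sources used here. Where nothing says that replicates are separate animals, p-values measure only the spread between these samples. Vaultrc5 itself had 33, 39 and 48 counts in wild-type liver, 4, 1 and 4 in wild-type brain and 0 in each of the 6 knockout libraries.

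The cerebellum is the hindbrain structure that tunes movement, and its cortex is built from a few cell types. Granule neurons, the most numerous neurons of the brain, send parallel fibres to Purkinje neurons, which carry the only output of the cerebellar cortex. The marker genes cover both cell types. Gabra6 encodes the GABA-A receptor alpha6 subunit of granule neurons. Cbln1 and Cbln3 encode cerebellins, secreted proteins of granule neurons, of which Cbln1 organises the synapses onto Purkinje neurons. Fat2 encodes a giant protocadherin of granule neurons. Zic1 and Zic2 encode zinc finger transcription factors of granule neurons and of other dorsal and midline brain cells. Pcp2 encodes a GoLoco protein of Purkinje neurons, and Car8 a carbonic anhydrase-related protein without enzyme activity that binds the IP3 receptor Itpr1 in Purkinje neurons. En2 encodes a homeobox factor that patterns the midbrain and hindbrain.

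The regulatory sequence just upstream of a granule neuron gene and of a Purkinje neuron gene is shown because both genes had 3 counts or fewer in the same brain libraries, described next. Both stretches are RefSeq sequence on GRCm38.p6, read 5′ to 3′ on the minus strand, the strand of the gene. RefSeq promoter windows were matched for 5 of the 9 genes, and these were the pair whose window before the first start did not overlap their own annotated gene. The Gabra6 stretch, chr11:42321073-42321322, holds the 250 bases before the start. The Pcp2 stretch, chr8:3625607-3625778, lies before the most upstream of its RefSeq starts, holds 172 bases and ends 59 bases before that start. The rest of its window overlaps exons of Pet100 on the other strand. Capitals mark the match to CAGNTG, the E-box bound by basic helix-loop-helix factors such as Neurod1.
Gabra6: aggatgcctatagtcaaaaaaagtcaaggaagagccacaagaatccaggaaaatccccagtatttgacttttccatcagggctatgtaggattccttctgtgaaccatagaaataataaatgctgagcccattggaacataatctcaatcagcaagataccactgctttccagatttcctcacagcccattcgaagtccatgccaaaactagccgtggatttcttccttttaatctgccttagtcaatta
Pcp2: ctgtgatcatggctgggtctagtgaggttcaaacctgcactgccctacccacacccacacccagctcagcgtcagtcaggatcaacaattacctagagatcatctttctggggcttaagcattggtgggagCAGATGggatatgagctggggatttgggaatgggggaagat

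In the 250 bases before the start, searched on both strands with overlaps allowed, Pcp2 held 1 match to CAGNTG, 100 bases before the start, and 1 match to AGGTCA, the half-site of the orphan receptor Rora, 12 bases before the start and so outside the printed stretch. It held 0 matches to CAGCAGG, a motif of the Zic factors. The Gabra6 window held 0 matches to each of the 3 motifs. Among 32851 RefSeq promoter windows of the same length, 44.8% held CAGNTG, 14.0% held AGGTCA and 8.44% held CAGCAGG. These are matches of letters only, and binding was not measured.

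Levels are given in CPM, counts relative to library size after TMM scaling within a tissue. Since the genes were chosen by these values, their levels and their spread over the brain libraries are a description and carry no test. In every brain library of number 1 all 9 genes were abundant, in number 3 they were intermediate, and in number 2 they were low or nearly absent, in wild type and knockout alike. Together they took 0.300% of all counts in wild-type brain 1, 0.0660% in wild-type brain 3 and 0.00419% in wild-type brain 2. In the knockout brains these shares were 0.289% in number 1, 0.113% in number 3 and 0.00427% in number 2. Knockout brain 3 also held RNA that the other brains lacked: 9 pancreatic digestive enzyme genes, picked after their values were seen and led by the lipase gene Pnlip (26748 counts against 0 to 8), summed to 128071 counts, or 0.768% of its total. They summed to 0 to 11 counts in each of the other 5 brains. The part of this in the values of knockout brain 3 was not tested. The tissue was bulk, so fewer cells of a type and less RNA per cell cannot be told apart.

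**Figure D1:**
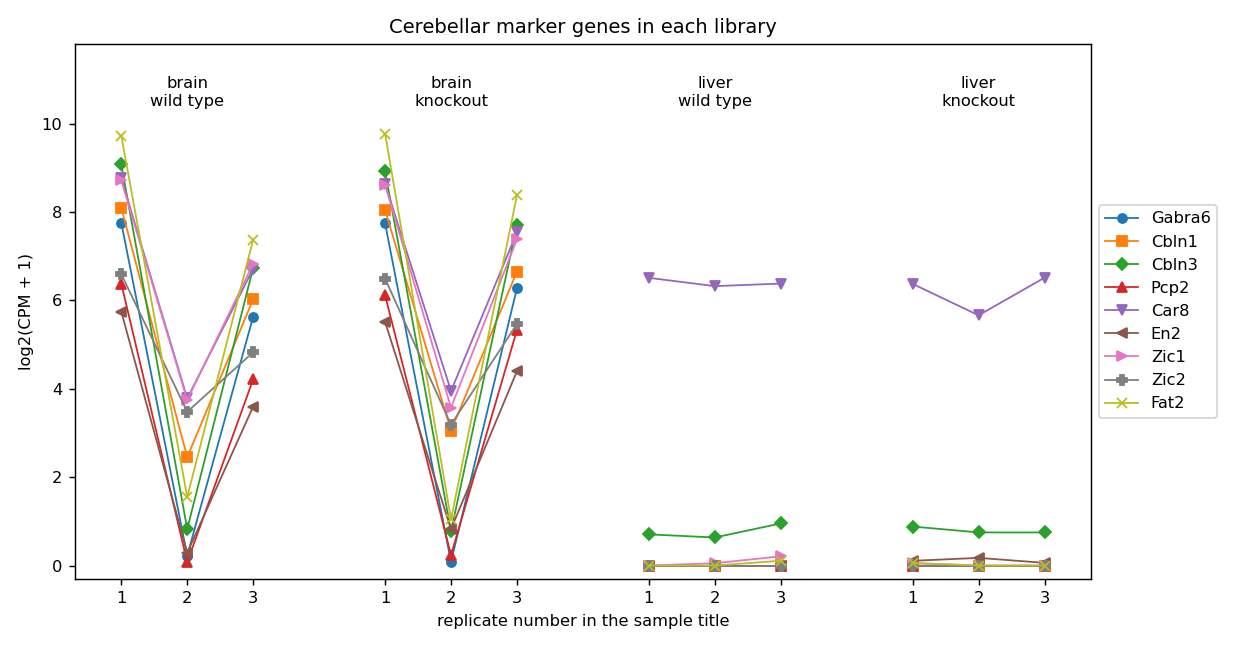
Level of each cerebellar marker gene as log2(CPM + 1) in the 12 libraries, by group and replicate number; CPM is scaled within each tissue, and lines only join the points of a gene within a group. In both genotypes the brain libraries numbered 2 lie lowest for all 9 genes, as they do for 16.5% of genes tested in brain, and in liver Car8 is the gene with a sizeable level.

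Fat2, Cbln3 and Gabra6, all granule neuron genes, had the widest ranges of the 9. Gabra6 (ENSMUSG00000020428.13, chromosome 11, 42306437 to 42321072, GRCm38, minus strand) was at 215, 0.165 and 48.6 CPM in wild-type brains 1, 2 and 3 and at 214, 0.0591 and 76.4 CPM in knockout brains 1, 2 and 3. The libraries numbered 2 held 3 counts in the wild type and 1 in the knockout, against 3624 and 3240 counts in the libraries numbered 1. The wild-type level in number 2 was thus 0.0768% of that in number 1 (exact 95% counting interval 0.0158% to 0.225%), and the knockout level was 0.0277% (0.000701% to 0.154%). These intervals cover counting error only, as reads lacking molecular identifiers may be copies of one molecule.

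Fat2 (ENSMUSG00000055333.14, chromosome 11, 55250609 to 55336564, minus strand), the adhesion molecule of parallel fibres, was at 846, 1.93 and 165 CPM in wild-type brains 1 to 3 and at 874, 1.06 and 332 CPM in knockout brains 1 to 3. It had the widest range of the 9 genes, 8.73 on the log2(CPM + 1) scale, and 2 of the 18075 genes tested in brain had a wider one. Cbln3 (ENSMUSG00000040380.14, chromosome 14, 55878913 to 55884392, minus strand), whose product assembles with Cbln1, was at 538, 0.772 and 106 CPM in wild-type brains and at 484, 0.710 and 207 CPM in knockout brains. Its level in number 2 was 0.143% of that in number 1 in the wild type (0.0784% to 0.241%) and 0.147% in the knockout (0.0757% to 0.256%). For Fat2 these shares were 0.228% and 0.122%.

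Cbln1 (ENSMUSG00000031654.16, chromosome 8, 87468405 to 87472609, minus strand) kept more. It was at 272, 4.47 and 64.0 CPM in wild-type brains 1 to 3 and at 263, 7.28 and 99.5 CPM in knockout brains 1 to 3, with 81 and 123 counts in the libraries numbered 2. This left 1.64% of the level in number 1 in the wild type (1.30% to 2.04%) and 2.77% in the knockout (2.29% to 3.31%). Cbln1 is known to be made outside the cerebellum too, in the thalamus among other places.

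Of the 9 genes, Zic2 kept the largest share of its level in number 2. Zic1 (ENSMUSG00000032368.14, chromosome 9, 91358058 to 91365810, minus strand) was at 418, 12.4 and 113 CPM in wild-type brains and at 391, 10.9 and 165 CPM in knockout brains. Zic2 (ENSMUSG00000061524.8, chromosome 14, 122475435 to 122479852, plus strand) was at 95.5, 10.1 and 27.3 CPM in wild-type brains and at 89.0, 8.10 and 43.2 CPM in knockout brains. In number 2, Zic1 stood at 2.96% (wild type) and 2.78% (knockout) of its level in number 1, and Zic2 at 10.6% (9.07% to 12.4%) and 9.10% (7.58% to 10.9%). Both factors are also made in the septum and the olfactory bulb. Zic1 shares 60 exon bases with Zic4 on the other strand, and whether the counting used strand was not given in the sources used here.

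The Purkinje neuron genes differed from each other in the same way. Pcp2 (ENSMUSG00000004630.18, chromosome 8, 3623371 to 3625545, minus strand) was at 82.3, 0.0551 and 17.5 CPM in wild-type brains and at 68.5, 0.177 and 39.2 CPM in knockout brains, with 1 and 3 counts in the libraries numbered 2. Its level there was 0.0670% (0.00169% to 0.374%) and 0.259% (0.0534% to 0.760%) of that in number 1. Pcp2 shares 941 exon bases with Pet100 on the other strand, yet Pet100 had 217 to 325 counts in each liver library and Pcp2 had 0 in all 6, so Pet100 reads were not counted to Pcp2 there.

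Car8 (ENSMUSG00000041261.9, chromosome 4, 8143362 to 8239041, minus strand) was at 435, 12.7 and 104 CPM in wild-type brains 1 to 3 and at 397, 14.4 and 185 CPM in knockout brains 1 to 3. In number 2 it kept 2.93% (2.56% to 3.34%) and 3.64% (3.19% to 4.13%) of the level in number 1. En2 (ENSMUSG00000039095.8, chromosome 5, 28165694 to 28172166, plus strand) was at 52.7, 0.221 and 11.1 CPM in wild-type brains and at 44.6, 0.769 and 20.1 CPM in knockout brains. Its remainder of 4 and 13 counts in number 2 was 0.419% (0.114% to 1.08%) and 1.72% (0.912% to 2.97%).

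**Figure D2:**
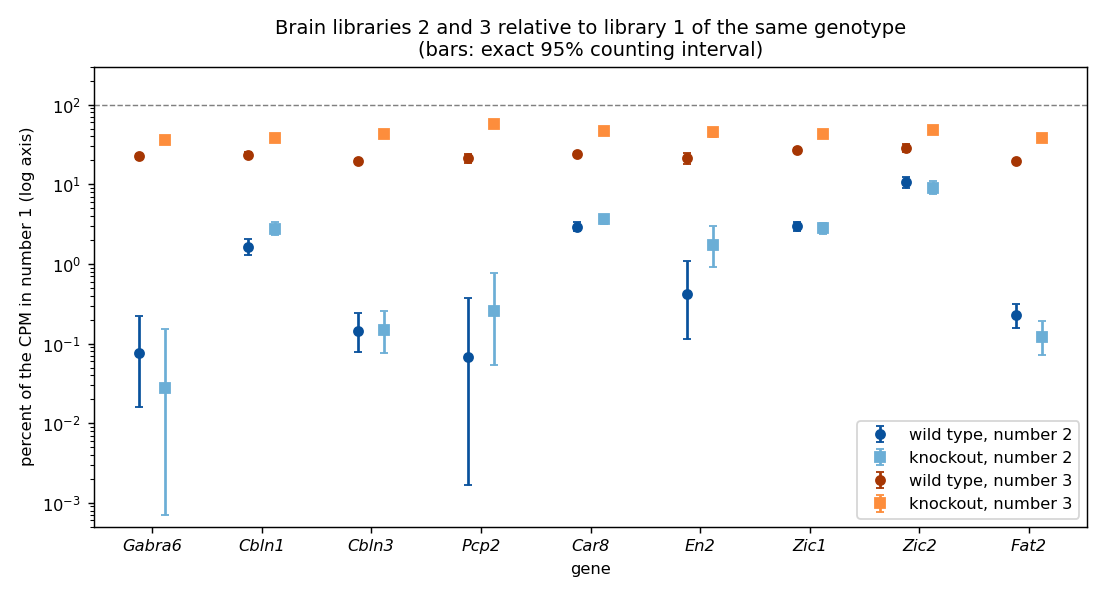
Level of each gene in the brain libraries numbered 2 and 3 as a percent of the library numbered 1 of the same genotype, on a log axis; bars are exact 95% counting intervals and the dashed line marks 100 percent. The values for number 3 form narrow bands, while those for number 2 run from 0.0277% for Gabra6 to 10.6% for Zic2.

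Whereas the remainders in number 2 differed widely from gene to gene, those in number 3 were alike. In the wild type, number 3 held between 19.5% (Fat2) and 28.6% (Zic2) of the level in number 1, with a median over the 9 genes of 22.5%. In the knockout it held between 35.7% (Gabra6) and 57.3% (Pcp2), with a median of 42.7%. The middle 80% of all genes tested in brain lay between 66.9% and 150% in the wild type and between 68.2% and 146% in the knockout, around medians of 102% and 99.9%. Each of the 9 genes was higher in knockout brain 3 than in wild-type brain 3, at 147% to 224% of the wild-type level. Over all genes tested this ratio had a median of 99.8%. In number 1 the knockout stood at 83.1% to 103% of the wild type.

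Both libraries of number 1 lay above both of number 3, and these above both of number 2, for 9 of the 9 genes. This order was found for 1586 of 18075 genes tested in brain, or 8.77%. Both libraries of number 2 lay at least 10-fold below both of number 1 for 8 of the 9 genes, and for 98 genes, or 0.542%, overall. Zic2 was the gene outside this count. The genes were put forward from this contrast, so nothing further is read from these shares. The range over the 6 brain libraries was 3.41 (Zic2) to 8.73 (Fat2) on the log2(CPM + 1) scale, with a median of 5.64, against a median of 0.50 over all genes tested. Without the libraries numbered 2 the median range was 2.13. The share of a gene's variance over the 6 libraries that lay between the replicate numbers was 97.6% (Zic2) to 99.7% (Gabra6). This share was not computed over all genes tested, and the 9 genes were chosen by this contrast.

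Per length of annotated exon, the levels of the 9 genes could be ordered. In wild-type brain 1, Car8 was highest at 113 CPM per kilobase, followed by Cbln3 at 111, Cbln1 at 89.6, Gabra6 at 86.6, Zic1 at 73.5, Fat2 at 58.2, Pcp2 at 45.0, Zic2 at 33.2 and En2 at 14.9. Knockout brain 1 gave the same order, from 103 for Car8 to 12.6 for En2. With a single library of each genotype at this number, neighbours such as Car8 and Cbln3 or Cbln1 and Gabra6 (86.6 and 85.8 in the knockout) are not told apart. In wild-type brain 2 the order was another one, led by Zic2 at 3.52, Car8 at 3.31 and Zic1 at 2.18 CPM per kilobase, with Gabra6 at 0.0664 and Pcp2 at 0.0302.

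To ask whether loss of the vault RNA altered these genes in brain, knockout and wild type were compared over the 6 brain libraries with the edgeR quasi-likelihood test. None of the 9 genes was called. The background was likewise 0%: 0 of 18075 genes passed a Benjamini-Hochberg adjusted p of 0.05, and 122 passed 0.05 before adjustment. With the DESeq2 Wald test these numbers were 0 and 78. The log2 fold changes of the 9 genes ran from 0.03 ± 1.54 (SE) for En2 to 0.25 ± 2.01 for Fat2, with a median of 0.11, against a median of -0.01 over all genes, and the edgeR adjusted p was 1.00 for each. With standard errors of 0.99 to 2.01, this fit, which has no term for the replicate number, could not resolve a change of several fold in either direction. With the replicate number as a block the log2 fold changes were 0.11 to 0.42, with standard errors of 0.16 to 0.39, and 0 genes were called. What the numbers stand for was not given, so the block is an alternative only. Without the libraries numbered 2 the log2 fold changes were 0.03 to 0.26, with standard errors of 0.66 to 0.85 and an edgeR adjusted p of 1.00 for each, and 0 genes were called. Without knockout brain 3 they were 0.05 to 0.38, with standard errors of 1.22 to 2.46, and again 0 genes were called.

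**Figure D3:**
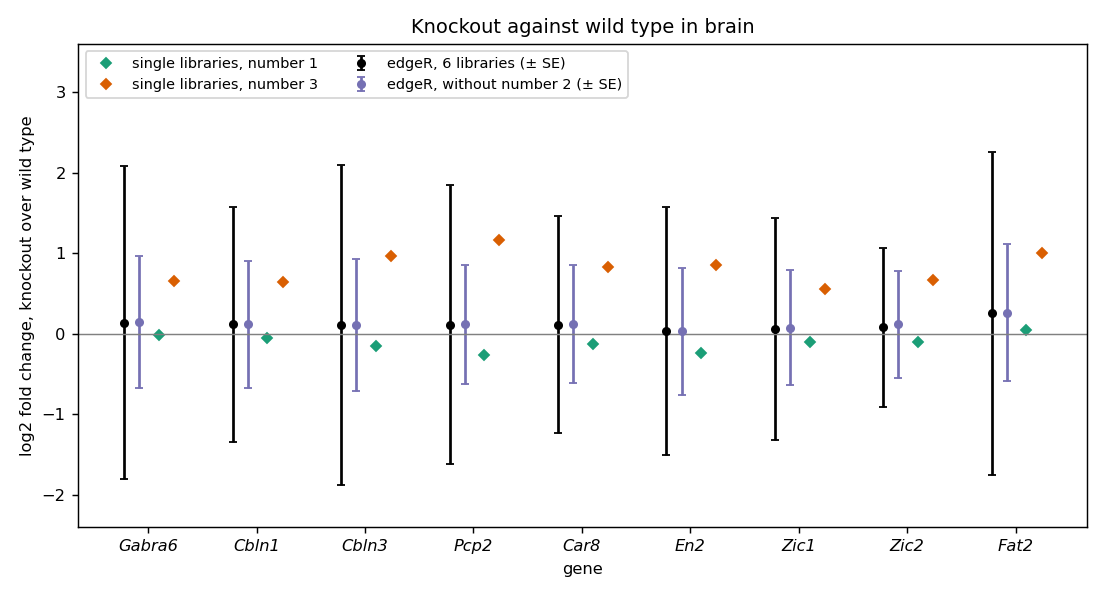
Log2 fold change of knockout over wild type for each gene in brain: edgeR estimates with their standard errors over 6 libraries (black) and without number 2 (purple), and the ratio of the single libraries numbered 1 (green) and 3 (orange). The single-library ratios lie near 0 in number 1 and between 0.55 and 1.16 in number 3.

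In the fit without a replicate term, a single library set the sign of the estimates. Leaving out each brain library in turn moved the log2 fold changes of the 9 genes over a span from -1.20 to 2.27. All 9 became negative without wild-type brain 2, without wild-type brain 3 or without knockout brain 1. The direct ratios of same-numbered libraries were -0.27 (Pcp2) to 0.05 (Fat2) on the log2 scale in number 1 and 0.55 (Zic1) to 1.16 (Pcp2) in number 3. In number 2, at the lowest counts, they ran from -1.48 (Gabra6) to 1.80 (En2), with Gabra6, Cbln3, Zic1, Zic2 and Fat2 lower in the knockout and the other 4 higher. These are comparisons of single libraries and have no replicate check.

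In liver the 9 genes formed 3 sets. Gabra6, Cbln1, Pcp2 and Zic2 had 0 counts in all 6 libraries. En2 had 0, 0 and 0 counts in wild-type livers and 2, 3 and 1 in knockout livers, Zic1 had 0, 1 and 4 and then 1, 0 and 0, and Fat2 had 0, 0 and 2 and then 1, 0 and 0. Most of these values lie at or under 3 counts, which is 0.110 to 0.128 CPM in liver, and these genes did not pass the filter on low counts. Without that filter none of them was called. En2 then had an unadjusted p of 0.0378 and an edgeR adjusted p of 0.898. Cbln3 was low but present, with 15, 15 and 24 counts in wild-type livers (0.705 ± 0.202 CPM, SD, n = 3) and 22, 16 and 16 in knockout livers (0.734 ± 0.0940 CPM).

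Car8 was expressed in liver. It was at 90.1, 79.0 and 82.2 CPM in wild-type livers 1 to 3 (83.8 ± 5.71, SD, n = 3) and at 81.8, 49.6 and 90.3 CPM in knockout livers 1 to 3 (73.9 ± 21.4). Knockout liver 2 stood apart with 1167 counts, where the other 5 livers had 2113 to 2145. Car8 was not alone in this. Car3 was at 1207 CPM in knockout liver 2, against 2387 to 3020 CPM in the other 5 livers. Of the liver markers, Fabp1 had 14305 counts there against 25473 to 30139, while Serpina1a was not low, with 93613 counts against 80826 to 95528. Neither Car8 nor Cbln3, the pair that passed the filter on low counts in liver, was called. The background was 0%, with 0 of 15329 genes under an edgeR adjusted p of 0.05, 536 under an unadjusted p of 0.05, and 10 called by the DESeq2 Wald test. The log2 fold change was -0.18 ± 0.21 (SE) for Car8 (edgeR adjusted p = 0.992) and 0.06 ± 0.33 for Cbln3 (adjusted p = 0.999). Without knockout liver 2 the Car8 value was 0.04. The knockout effect did not pass the test for a difference between brain and liver for any of the 9 genes. In the edgeR interaction fit 0 of 20141 genes, or 0%, passed and 489 had an unadjusted p under 0.05. The DESeq2 Wald test called 1, which was none of the 9. Gabra6, Cbln1, Pcp2 and Zic2, with 0 counts in every liver, entered the edgeR fit through brain alone (standard errors of 809 to 3523). En2, Zic1 and Fat2, with 0 to 4 counts in a liver, had standard errors of 6.32 to 10.9. For these genes the fit could not decide, as there was almost no liver level to compare.

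Between tissues the answer depended on the brain library. CPM scaled within a tissue cannot be set across tissues, so levels in this paragraph are CPM with TMM scaling over all 12 libraries. In the wild type, mean brain levels were at least 412-fold higher than liver for Gabra6, at least 532-fold for Cbln1, at least 208-fold for Zic2 and at least 156-fold for Pcp2, taking 3 counts per liver library as the floor. In the brains numbered 2, however, Gabra6 and Pcp2 were themselves at 1 to 3 counts. Cbln3 was at 0.575 and 0.529 CPM in the brains numbered 2 and at 0.748 to 1.26 CPM in the livers. Car8 was at 324 and 297 CPM in the brains numbered 1, above the 65.8 to 121 CPM of the livers, and at 9.48 and 10.8 CPM in the brains numbered 2, below them. In number 3, wild-type brain (76.1 CPM) lay below each wild-type liver (107 to 121 CPM), and knockout brain (138 CPM) lay above each knockout liver.

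With all 3 libraries of a group, the edgeR test called Cbln1, Cbln3, Zic1, Zic2 and Fat2 higher in wild-type brain than in wild-type liver, 5 of the 6 genes that passed the filter. Of 18850 genes, 43.9% were called higher in brain and 78.6% in either direction. Car8 differed by 0.28 ± 0.97 (SE) on the log2 scale (edgeR adjusted p = 0.802). Gabra6, Pcp2 and En2, with 886 to 3624 counts in wild-type brain 1, were not tested, since too few libraries reached the minimum count. Without wild-type brain 2 all 9 were tested and 8 called. In the knockout 6 of 7 were called, the same 5 genes and En2, where 43.5% of 18785 genes were called higher in brain and 78.7% in either direction. Car8 was at 0.57 ± 0.95 (adjusted p = 0.597). Without knockout brain 2 the count was 9 of 9, and without knockout liver 3 it was 3. Genes with few or no liver counts entered these tests only through their brain level, so the counts are a description.

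Other genes of the same cells were examined through lists chosen for their known cell type. Of 9 other granule neuron genes, 6 showed the order of number 1 above 3 above 2 (8.77% of all genes did). Neurod1, a helix-loop-helix factor of granule neurons, was at 165, 13.3 and 44.3 CPM in wild-type brains 1 to 3 and at 159, 9.70 and 72.9 CPM in knockout brains 1 to 3. Barhl1, a homeobox factor of this lineage, was at 6.54, 0 and 1.75 CPM and at 4.81, 0.0591 and 4.14 CPM. Slc17a7, the vesicular glutamate transporter that cortical neurons also use, ran the other way, with 1060 and 891 CPM in number 2 against 622 to 885 CPM in the other brains. The potassium channel gene Kcnk9 held between 151 and 198 CPM in all 6. The median difference of number 2 from number 1 on the log2(CPM + 1) scale over the 9 genes was -1.55 in the wild type and -1.21 in the knockout, against -0.01 and 0.01 over all genes tested.

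Of 16 other Purkinje neuron genes, 14 showed the same order, and the median differences were -2.41 and -2.04. Ppp1r17, a phosphatase inhibitor of Purkinje neurons, was at 46.7, 0 and 11.0 CPM in wild-type brains and at 41.8, 0.296 and 18.2 CPM in knockout brains. Lhx1, a LIM homeobox factor, was at 29.4, 0 and 7.60 CPM and at 29.2, 0.0591 and 12.4 CPM. Both had at most 5 counts in the brains numbered 2. Calb1, a calcium buffer that many forebrain neurons share, kept 98.9 and 70.7 CPM there, out of 293 and 274 CPM in number 1. Pcp4 and Itpr1 were the genes outside the order, although Itpr1 was at 1999.9 and 2013 CPM in number 1 and between 882 and 1237 CPM in the other 4 brains.

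Of 7 tested genes of the other cerebellar cells, 4 followed the order, among them Gdf10 of Bergmann glia (41.9, 4.36 and 9.99 CPM in wild-type brains, 33.6, 3.02 and 19.8 CPM in knockout brains). Slc6a5, the glycine transporter of Golgi cells and of brainstem neurons, did not: it was at 18.7, 0 and 134 CPM in wild-type brains 1 to 3 and at 12.5, 0.118 and 5.13 CPM in knockout brains 1 to 3. Wild-type brain 3 also held the markers of brainstem, 11 genes led by Hox genes, at a summed 64.3 CPM, against 0.8 to 1.9 CPM in the other 5 brains.

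The families of the marker genes did not share one order. Of the Zic, En and midbrain-hindbrain patterning genes, 7 of 13 were tested and 4 followed the order. Zic4 (23.3, 3.36 and 7.65 CPM in wild-type brains), Zic5 and Otx2 were among them. En1, the sister gene of En2, was at 3.51, 0 and 1.05 CPM in wild-type brains and at 0.198, 0.118 and 1.05 CPM in knockout brains, so its genotypes did not run alike. Of 13 tested GABA-A receptor subunits other than Gabra6, 0 followed the order and 7 were highest in both libraries of number 2, where 15.5% of all genes were. Gabrd, the delta subunit that pairs with alpha6 in granule neurons and with other subunits in the forebrain, was at 58.4 and 63.4 CPM in number 1 and at 32.7 to 40.3 CPM in the others.

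Cbln2, a cerebellin of the forebrain, was highest in number 2 at 32.7 and 29.6 CPM, against 13.0 to 21.2 CPM elsewhere. Of 5 Fat and Dchs cadherins, Fat1 alone followed the order, and it was at 128 and 118 CPM in number 2 against 446 and 444 CPM in number 1. Of 11 tested carbonic anhydrases Car4 and Car9 did, and Car10 and Car11, which like Car8 encode proteins without enzyme activity, lay between 66.3 and 178 CPM in all 6. Of 5 other GoLoco genes Gpsm1 did, and of 3 IP3 receptor genes Itpr3.

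**Figure D4:**
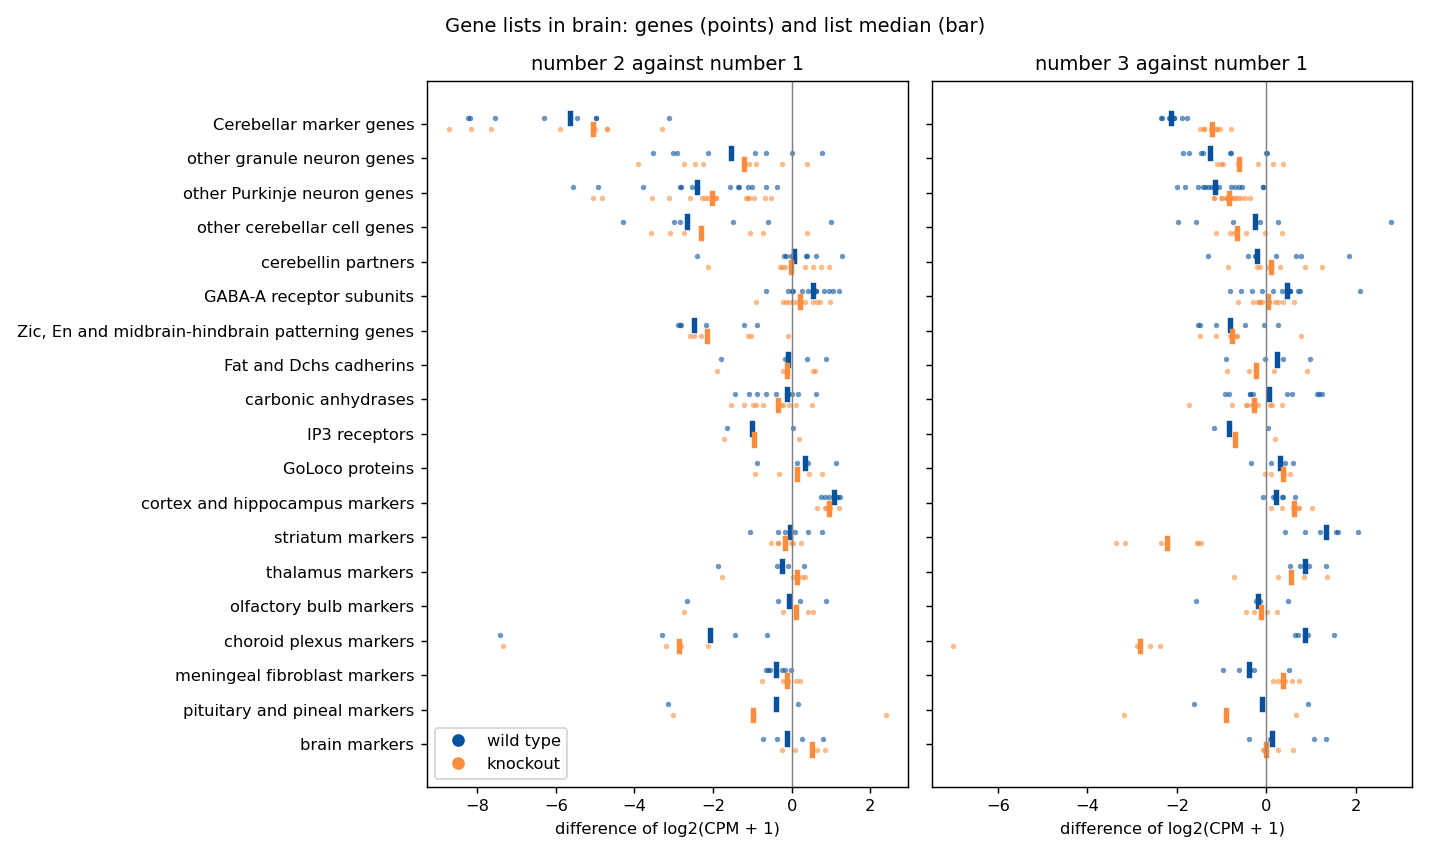
Difference of log2(CPM + 1) between brain library 2 (left) or 3 (right) and library 1 of the same genotype, by gene list; points are genes tested in brain and bars are list medians. The cerebellar marker genes have medians of -5.64 and -5.04 in number 2, and the cortex and hippocampus markers medians of 1.07 and 0.95.

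No gene of the granule, Purkinje and other cerebellar cell lists was called between the genotypes in brain by edgeR (0 of 9, 0 of 16 and 0 of 7, with a background of 0%). The median log2 fold changes of these lists were 0.12, 0.02 and -0.06.

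The brain libraries differed in markers of other regions too, and the part of these in the values above was not tested. Brain and liver markers matched the brain label in all 6, while knockout brain 3 held the digestive enzyme RNA given above. Snap25, a presynaptic protein gene, was at 1856 to 2220 CPM and the liver markers summed to at most 2.3 CPM. The brain markers Gfap (55.2 to 226 CPM) and Mbp (987 to 3432 CPM) varied more, both highest in wild-type brain 3. The 7 cortex and hippocampus markers summed to 334 and 385 CPM in number 1, to 690 and 722 CPM in number 2 and to 411 and 542 CPM in number 3, and 6 of the 7 were highest in both libraries of number 2. The choroid plexus markers summed to 249, 4.2 and 474 CPM in wild-type brains 1 to 3 and to 651, 8.3 and 10.6 CPM in knockout brains 1 to 3, so they were low in number 2 as the marker genes were, and low in knockout brain 3, where the marker genes were not. The striatum markers summed to 208, 179 and 407 CPM in the wild type and to 521, 446 and 144 CPM in knockout brains and did not follow the replicate number. The 4 thalamus markers summed to 76.9, 51.4 and 158 CPM in wild-type brains 1 to 3. In knockout brains 1 to 3 they summed to 62.2, 51.8 and 87.8 CPM. These sums were lowest in number 2 and highest in number 3. Of the 4 genes, however, Prkcd alone was lowest in both libraries of number 2, at 6.62 and 6.21 CPM. Over the 4 genes, the median log2(CPM + 1) difference of number 2 from number 1 was -0.24 in the wild type and 0.14 in the knockout. The 5 olfactory bulb markers summed to 8.12 to 14.3 CPM over the 6 brains. The meningeal fibroblast markers summed to between 65.4 and 105 CPM in all 6 brains. These cells also make Zic1 and Zic2, and their part in the levels of both genes was not tested. The 7 hypothalamus markers summed to at most 1.6 CPM in any brain library.

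Finally, the genes nearest to the marker genes in pattern were found by the root-mean-square difference from their mean centred profile over the 6 brain libraries, on the log2(CPM + 1) scale. The 9 genes themselves lay at 0.160 (Pcp2) to 1.25 (Zic2) from this profile. The 10 nearest other genes were Ppp1r17 (0.316), Cnpy1 (0.363), Crtam (0.384), Il16 (0.477), Lhx1 (0.490), Arhgef33 (0.653), Gm2694 (0.729), Nrk (0.744), Barhl2 (0.772) and Svep1 (0.790). Ppp1r17 and Lhx1 belong to the Purkinje list above. Cnpy1, which encodes a regulator of fibroblast growth factor signalling, was at 152, 0.0551 and 23.8 CPM in wild-type brains 1 to 3 and at 123, 0.946 and 51.3 CPM in knockout brains 1 to 3. Gm2694, a long non-coding RNA gene, overlaps Cbln1 on the other strand without shared exon bases and was at 59.9, 1.76 and 12.3 CPM and at 67.3, 1.95 and 27.0 CPM. The likeness was over 6 libraries that share their replicate numbers and is a description only.

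**Figure D5:**
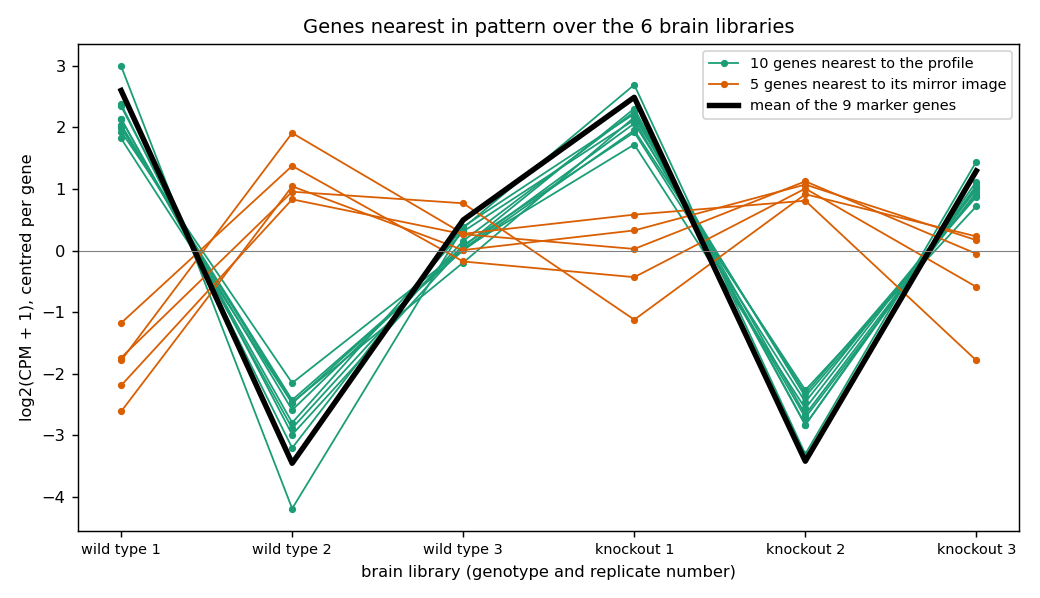
Log2(CPM + 1) centred per gene over the 6 brain libraries for the mean of the 9 marker genes (black), the 10 genes nearest to it (green) and the 5 nearest to its mirror image (orange). The 10 nearest genes follow the profile in both genotypes, with distances of 0.316 to 0.790, whereas the orange lines stay at 1.68 to 1.90 from its mirror image.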

How the data were processed

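The deposited table holds expected counts for each gene in each library, neither normalized nor pooled. Cutadapt, STAR and the mm10 build are named in the submitters' processing notes. Which program counted the reads, and whether by strand, is not given in the sources used here. Of the deposited values, 5.06% to 5.71% in a library were not whole, while all values of the 9 marker genes were. Counts were rounded. Library totals were 14844937 to 18567362 in brain and 23247425 to 27155478 in liver. The chi-square statistic between replicates was at least 27.2 times its degrees of freedom, so each library counted separately.

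Groups were compared in R 4.3.3 by quasi-likelihood F-tests from edgeR 4.0.16 (TMM, filterByExpr with minimum count 10 and total 15, robust) over all genes, with Benjamini-Hochberg adjustment. SE is the absolute log2 fold change over the root of F. The fits were tested on simulated data that had no differences between replicate numbers, so that test does not cover the spread of these genes in brain. DESeq2 1.42.0, other scalings and filters, a replicate block and left-out libraries were alternatives. Intervals are exact (Clopper-Pearson). In liver, same-numbered libraries deviated together (correlations 0.31, 0.34 and 0.38 over genes, numbers from the titles), and the block changed no call of these genes. GENCODE M21 gave coordinates and exon lengths, with 55450 of 55450 identifiers matched. The genes and lists were chosen with earlier results of these data known. The genes named are the 9, the lists' genes, the 10 nearest in pattern and the 5 nearest to the mirror image. Pet100 and the digestive enzyme genes were named after their values were seen. Results for some genes of the lists are not reported here.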

Additional observations from a re-analysis of the deposited data

How the results depend on the processing

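In the knockout comparisons and the interaction, the count of marker genes called was 0 under every alternative run. In the wild-type tissue comparison the count of 5 became 2 with no filter beyond 1 count and 8 with a filter at a mean of 1 CPM, and it was 5 to 8 with a library left out and 8 without brain number 2, chosen after seeing the data. In the knockout it went from 6 to 3 with no filter and was 3 to 9 with a library left out. The median range over the brain libraries was 5.14 to 5.64 with a library left out, 7.36 with a pseudocount of 0.1 CPM, and 2.13 without both libraries numbered 2. The brain log2 fold changes with a library left out ran from -1.20 to 1.99 for Gabra6, -1.09 to 1.85 for Cbln1, -1.05 to 2.12 for Cbln3, -0.76 to 2.04 for Pcp2, -0.88 to 1.77 for Car8, -1.03 to 1.95 for En2, -1.04 to 1.60 for Zic1, -0.79 to 1.32 for Zic2 and -1.02 to 2.27 for Fat2. In liver they ran from -0.09 (-0.0949) to 0.31 for Cbln3 and -0.35 to 0.04 (0.0383) for Car8. With the replicate block in brain, 0 of the 9 genes and 0 of 18075 genes were called (406 with an unadjusted p under 0.05), and the log2 fold changes were 0.11 to 0.42 with standard errors of 0.16 to 0.39. The pairing was not carried by all numbers: same-numbered brain libraries correlated at 0.69, 0.66 and -0.03 in their deviations for numbers 1, 2 and 3. Across liver genes, calls were 2 with the block, 4 with no filter, 1 without wild-type liver 2 and 10 with DESeq2, where the edgeR test called 0. The interaction called 2 genes with the block. No other alternative turned the direction of a marker gene.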

Other observations

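No gene mirrored the pattern of the cerebellar marker genes at its full size. The 5 genes nearest to the mirror image were Nnt (ENSMUSG00000116207.1), Gm4070, Gm21541, Gm17081 and Gm13302, at 1.68 to 1.90 from it. Nnt, the gene of the mitochondrial transhydrogenase, had 29, 271 and 76 counts in wild-type brains 1 to 3 and 54, 192 and 50 counts in knockout brains 1 to 3. Its counts were whole in 0 of the 12 libraries, so reads shared with other genes enter its level.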
